A study of Mus musculus with 4 samples.

Results

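Mllt1, Mllt3, Mllt6, Mllt10, Dot1l, Aff1, Aff2, Aff3 and Aff4 encode chromatin readers, a histone methyltransferase and scaffold proteins of transcription elongation. These 9 genes were looked up by symbol in the gene lists of a chromatin immunoprecipitation sequencing (ChIP-seq) study of the forkhead transcription factor Foxp1 in mouse kidney. The lists hold 8656 distinct gene symbols in all. Of the 9 genes, 6 were listed for the Foxp1KspKO ChIP (20.9% of all protein-coding genes) and 5 for the control ChIP (29.0%). The third list, which the authors name unique to the control, held 0 of the 9 (15.1% of all protein-coding genes). The genes were chosen by name with earlier results of these data known, so the p-values below are a description and were not tested.

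The study searched for direct target genes of Foxp1 in distal tubules. One ChIP library and 1 input library of unselected chromatin came from neonatal Foxp1KspKO mice, and another ChIP and input came from neonatal littermate controls. Both genotypes were handled alike: kidneys were perfused, digested with collagenase and passed through a sieve to collect tubular cells, and the labels give neither the sex nor the number of animals behind a library. Ksp in the knockout's name stands for Ksp-cadherin, whose gene Cdh16 supplies a promoter for Cre recombinase in tubule epithelia of the kidney, so cells in the digest that do not use that promoter may keep Foxp1. The labels do not spell out the Foxp1 and Cre alleles of either genotype. Under the antibody field of the labels, the Foxp1KspKO ChIP has the Foxp1 antibody and the control ChIP has rabbit IgG, while the sample descriptions give both libraries the same FoxP1 prefix. This conflict was not resolved, and the libraries are called by the genotype in their titles.

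Each genotype rests on a single ChIP library, so no difference between the lists could be checked against replicates, and no p-value was computed between genotypes. The deposited p-values come from the authors, only genes under 0.05 are listed, and the sources used here do not give the test, the tested region, the read depth or the adjustment. A p-value depends on the depth of a library as well as on its signal, and depth is unknown. The lists carry no expression values, so neither a gene's expression nor the tubular identity of the cells could be checked from them. Foxp1 and Cdh16 are in neither list, and the genotype labels could not be checked at those genes.

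As background, RNA polymerase II pauses soon after it starts a gene and is released by the kinase P-TEFb, a complex of Cdk9 with a T-type cyclin. AFF proteins are the scaffolds that hold P-TEFb and ELL elongation factors together in super elongation complexes. ENL and AF9, the products of Mllt1 and Mllt3, read acylated histone H3 through a YEATS domain and bind either an AFF scaffold or DOT1L, the methyltransferase of lysine 79 of histone H3, while AF10 and AF17, the products of Mllt10 and Mllt6, are related DOT1L partners. Several of these genes were found as fusion partners of MLL (Kmt2a) in human leukaemia. In cultured mouse collecting duct cells, Dot1l and AF9 are known to repress the gene for the alpha subunit of the epithelial sodium channel, and AF17 to relieve that repression.

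The DOT1L partner genes Mllt10 and Mllt6 had the lowest control p-values of the 9. Mllt10 (chromosome 2, 18055160 to 18212390, GRCm38) had a deposited p-value of 4.74e-11 in the Foxp1KspKO ChIP, against 2.64e-84 in the control ChIP. Mllt6 (chromosome 11, 97663122 to 97685461) had 1.34e-05 in the Foxp1KspKO ChIP, against 3.66e-49 in the control ChIP. On the −log10 scale these are 10.32 and 83.58 for Mllt10 and 4.87 and 48.44 for Mllt6. Both genes were therefore listed in both libraries, with the smaller p-value in the control ChIP.

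Within its own list, Mllt10 ranked 52 of 4953 symbols in the Foxp1KspKO ChIP and 3 of 6796 in the control ChIP. Mllt6 ranked 524 in the Foxp1KspKO ChIP, against 19 in the control ChIP. The control minus Foxp1KspKO gap in −log10 p was larger than that of Mllt10 in 2 of the 3086 genes in both lists, and larger than that of Mllt6 in 18. For both genes the control value makes up most of the gap, so these positions largely repeat the control ranks. Across those 3086 genes the median −log10 p was 2.51 in the Foxp1KspKO ChIP, against 3.91 in the control ChIP. All 19 symbols with a control p-value as low as that of Mllt6 or lower were also in the Foxp1KspKO list, and 16 of them had a lower Foxp1KspKO p-value than Mllt6.

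The genes closest to Mllt10 in the pair of −log10 p-values, by Euclidean distance over the 2 ChIP libraries, were Zfp36l1, Tnrc18 and Ptch1, at distances of 10.4, 18.5 and 20.7. Zfp36l1, which encodes an mRNA decay factor, had −log10 p-values of 13.55 in the Foxp1KspKO ChIP, against 93.50 in the control ChIP. Tnrc18 had 8.20 and 65.19, and Ptch1, the hedgehog receptor gene, 7.35 and 63.08, in the same order of libraries.

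**Figure D1:**
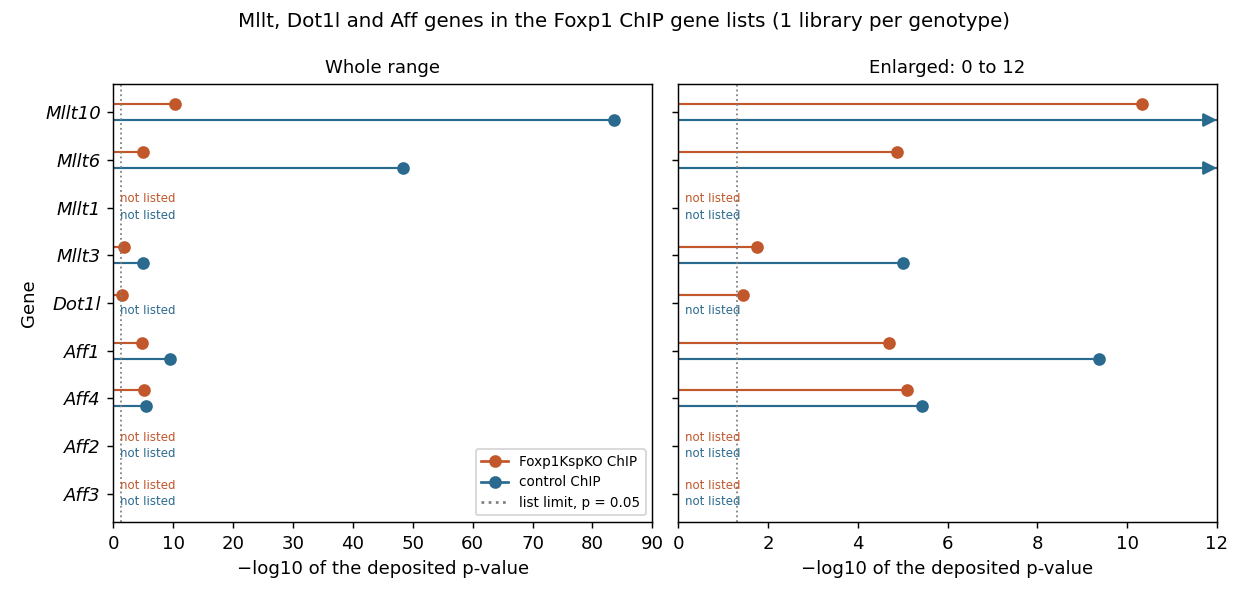
The −log10 of the deposited p-value of each of the 9 genes (horizontal axis; the right panel enlarges the low range, and arrowheads mark values beyond it) in the Foxp1KspKO ChIP (upper line of each pair) and the control ChIP (lower line), 1 library each; the dotted line is the 0.05 limit of the lists. Mllt10 and Mllt6 reach 83.58 and 48.44 in the control ChIP, while Aff4 has nearly equal values and Mllt1, Aff2 and Aff3 are not listed.

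Of the YEATS reader genes, Mllt3 was listed for both libraries and Mllt1 for neither. Mllt3 (chromosome 4, 87769925 to 88033407), the AF9 gene, had a p-value of 0.0171 in the Foxp1KspKO ChIP, against 9.78e-06 in the control ChIP, ranks 3549 and 1706 in their lists. Mllt1 (chromosome 17, 56892608 to 56935509), which encodes the paralogue ENL, was not listed for the Foxp1KspKO ChIP or for the control ChIP. A gene that is not listed has no deposited value, which is not a measurement of 0.

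Dot1l (chromosome 10, 80755101 to 80795461) was the one member listed for the Foxp1KspKO ChIP alone. Its p-value of 0.0366 was the highest of any listed member and the nearest to the limit of 0.05, and 6 other genes of the Foxp1KspKO list had exactly the same value. The other listed members had p-values that no other gene of their list shared. Such ties are common: 61.2% of the symbols in the Foxp1KspKO list and 67.2% in the control list share their p-value with another symbol.

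Among the scaffold genes, Aff1 and Aff4 were listed for both libraries and Aff2 and Aff3 for neither. Aff1 (chromosome 5, 103692362 to 103855322), the AF4 gene, had 2.02e-05 in the Foxp1KspKO ChIP, against 4.13e-10 in the control ChIP, or 4.69 and 9.38 on the −log10 scale. Aff4 (chromosome 11, 53350640 to 53421830), the core scaffold of the super elongation complex, had 8.15e-06 in the Foxp1KspKO ChIP, against 3.72e-06 in the control ChIP. Its −log10 values of 5.09 and 5.43 were the closest pair among the members, and its gap was exceeded by 1991 of the 3086 genes in both lists. Aff3 (chromosome 1, 38175393 to 38630178) and Aff2 (chromosome X, 69360190 to 69872054), whose human counterpart is silenced in a form of X-linked intellectual disability, encode scaffolds of related complexes.

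The counts can be set beside those of all 21900 protein-coding genes. The Foxp1KspKO list held 6 of the 9 members, against 20.9% of all protein-coding genes, and the control list 5 of 9, against 29.0%. A p-value of 0.001 or lower belonged to 4 members in the Foxp1KspKO ChIP (6.62% of all) and to 5 in the control ChIP (14.3% of all). A p-value of 1e-05 or lower belonged to 2 members in the Foxp1KspKO ChIP (Mllt10 and Aff4; 2.06% of all) and to 5 in the control ChIP (7.38% of all). Both libraries listed 5 members, against 13.2% of all protein-coding genes. For each of those 5 the control ChIP gave the lower p-value, as it did for 71.4% of the genes in both lists. The members were chosen by name with earlier results of these lists known, so nothing is read from the counts.

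None of the 9 genes was in the authors' unique control list, which held 15.1% of all protein-coding genes. Most of its 3483 symbols are absent from the Foxp1KspKO list. Such absence is not all that defines it, because 116 of them have a row in the Foxp1KspKO list too. For these 116, the deposited values were Foxp1KspKO p-values of at least 1.93e-04 and control p-values of at most 3.35e-13. Mllt10 and Mllt6 lay inside the control limit but had Foxp1KspKO p-values below the other limit. Aff1, Aff4 and Mllt3 had control p-values above 3.35e-13.

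**Figure D2:**
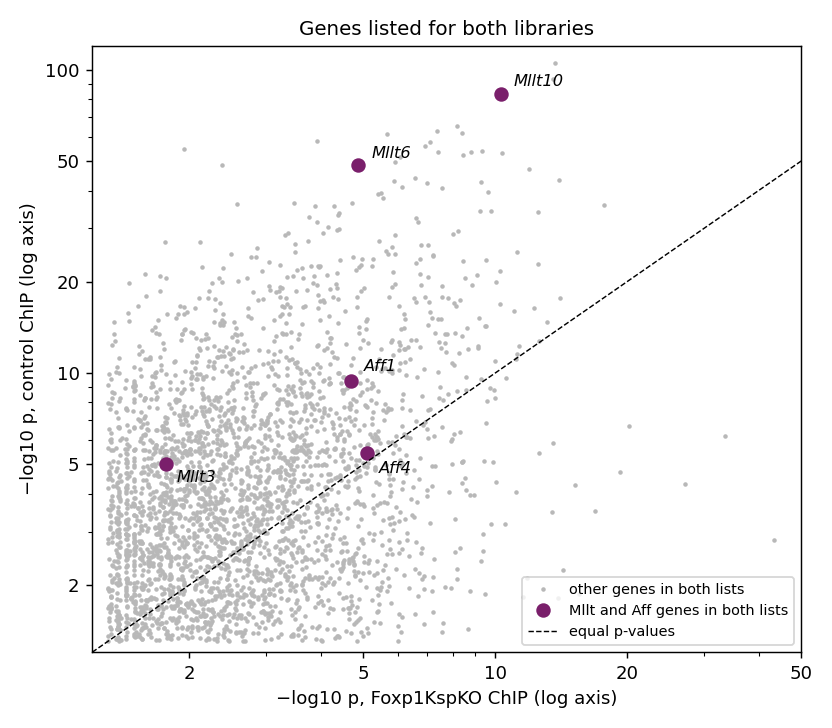
Each point is a gene listed for both libraries, with −log10 p in the Foxp1KspKO ChIP (horizontal, log axis) and in the control ChIP (vertical, log axis), 1 library each; the dashed line marks equal p-values. Mllt10 and Mllt6 lie at the upper edge, Aff1 and Mllt3 are above the line, and Aff4 (5.09 and 5.43) lies almost on it.

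The genes next to the members on the chromosome were looked up in the same lists. Of the 18 nearest protein-coding genes, 1 on each side of each member, 9 were in the Foxp1KspKO list (20.9% of all protein-coding genes), 5 in the control list (29.0% of all) and 8 in neither. None had the p-value of its member. Skida1, which ends 6710 bp before Mllt10, had 1.93e-04 in the Foxp1KspKO ChIP, against 1.44e-19 in the control ChIP, and it was in the unique control list that Mllt10 was not in. Its Foxp1KspKO value is the limit just given, the lowest among the 116. Dnajc1, which overlaps the other end of Mllt10 by 6757 bp, had 0.0400 in the control ChIP and was not in the Foxp1KspKO list.

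Of the 18 neighbours, 9 were in the Foxp1KspKO list and 4 in both lists, against 20.9% and 13.2% of all protein-coding genes. Several were thus listed for the Foxp1KspKO ChIP alone. Cisd3, an iron-sulfur protein gene that lies 3 bp past the end of Mllt6, had 0.00711 there, and Epop, a Polycomb cofactor gene on the other side, had 0.00834. Plekhj1, 637 bp past Dot1l, had 0.0135, and Zcchc10 and Leap2 on either side of Aff4 had 0.00441 and 0.0435. How the authors assigned signal to genes this close together is not given in the sources used here. Neither neighbour of Mllt1 or of Aff1 was in the Foxp1KspKO or the control list. Beside the unlisted scaffold genes, Rev1, a translesion polymerase gene 45471 bp from Aff3, had 9.55e-04 in the Foxp1KspKO ChIP, against 1.42e-05 in the control ChIP. Gm6812, 467136 bp from Aff2, had 1.42e-05 in the Foxp1KspKO ChIP, against 2.97e-05 in the control ChIP. Focad, 61212 bp from Mllt3, had 0.00273 in the Foxp1KspKO ChIP, against 0.0400 in the control ChIP, the opposite order to Mllt3.

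Gene length varied widely among the members and did not follow the order of their p-values. Mllt6, with the second-lowest control p-value, is the shortest at 22.3 kb, and Mllt10 spans 157 kb. Aff2 and Aff3, the longest at 512 and 455 kb, were not listed in either library. Among all protein-coding genes the listed share was larger in the 3 longest deciles than in any shorter one, in both libraries. In the longest decile, which holds Mllt3, Mllt10, Aff1, Aff2 and Aff3, it was 25.3% (exact 95% interval 23.4 to 27.1) for the Foxp1KspKO ChIP and 39.8% (37.8 to 41.9) for the control ChIP. In the decile of Mllt6 it was 19.3% (17.7 to 21.0) for the Foxp1KspKO ChIP and 27.6% (25.7 to 29.5) for the control ChIP. These intervals cover counting error only, and genes are not independent of each other.

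**Figure D3:**
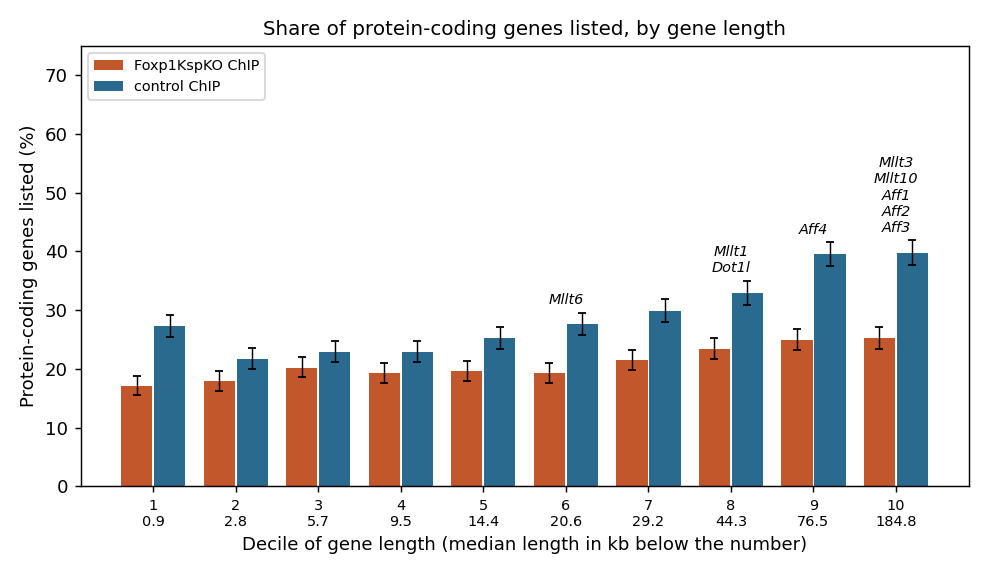
Share of protein-coding genes (percent, vertical axis) listed for the Foxp1KspKO ChIP (left bar) and the control ChIP (right bar) in each decile of gene length, 2190 genes each; error bars are exact 95% intervals, and the members are named above their decile. The control share is 39.8% in the longest decile, where 3 members were listed (Mllt3, Mllt10 and Aff1) and 2 were not (Aff2 and Aff3).

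At least 1 CpG-rich promoter window was found for 8 of the 9 members. Such windows, with 29 or more CG dinucleotides, were found for 3309 of the 17492 protein-coding genes with a window. This limit is that of the richest class below, which was chosen after values were seen. Mllt3, with 29, lies exactly on the limit. RefSeq windows on GRCm38.p6, from 250 bases before to 50 bases after an annotated start, were found for all 9 genes, 13 windows in all. Counting CG dinucleotides in the richest window of each gene, Aff3 had 54, Dot1l 49, Mllt1 and Mllt6 46 each, Aff4 44, Mllt10 43, Aff1 40, Mllt3 29 and Aff2 16. The less rich window of Mllt3 had 4, and those of Mllt10 had 7 and 6. For the richest window, the median over the 17492 protein-coding genes with a window was 15. Of the unlisted members, Aff3 lay above the listed genes on this count, Mllt1 lay within their range, and Aff2 had the lowest count of all 9.

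The 250 bases before the start of 4 members are shown because they span the outcomes: Mllt10 and Mllt6 with the lowest control p-values, Dot1l listed for the Foxp1KspKO ChIP alone, and Mllt1 listed for neither library. Each comes from the gene's most CpG-rich window and is written 5′ to 3′ on the gene's strand, with every CG in capitals. The Mllt10 and Mllt6 stretches lie wholly inside the gene coordinates given above, and the Dot1l and Mllt1 stretches overlap theirs in part. The CpG-poorer windows of Mllt10 lie upstream of its printed one. The windows are chr2:18064335-18064584 (plus strand) for Mllt10, chr11:97663162-97663411 (plus) for Mllt6, chr10:80754953-80755202 (plus) for Dot1l and chr17:56935389-56935638 (minus) for Mllt1.
Mllt10: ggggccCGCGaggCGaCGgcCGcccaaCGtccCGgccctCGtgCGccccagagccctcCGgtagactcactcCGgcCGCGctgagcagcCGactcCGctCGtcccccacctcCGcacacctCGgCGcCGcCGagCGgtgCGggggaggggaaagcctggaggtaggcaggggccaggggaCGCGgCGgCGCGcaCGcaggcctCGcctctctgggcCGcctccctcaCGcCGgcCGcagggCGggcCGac
Mllt6: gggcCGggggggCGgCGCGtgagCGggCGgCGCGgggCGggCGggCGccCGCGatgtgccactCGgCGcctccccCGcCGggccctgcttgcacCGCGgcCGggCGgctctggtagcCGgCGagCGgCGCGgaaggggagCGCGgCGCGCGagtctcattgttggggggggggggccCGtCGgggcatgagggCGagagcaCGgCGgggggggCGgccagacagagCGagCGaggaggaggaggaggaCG
Dot1l: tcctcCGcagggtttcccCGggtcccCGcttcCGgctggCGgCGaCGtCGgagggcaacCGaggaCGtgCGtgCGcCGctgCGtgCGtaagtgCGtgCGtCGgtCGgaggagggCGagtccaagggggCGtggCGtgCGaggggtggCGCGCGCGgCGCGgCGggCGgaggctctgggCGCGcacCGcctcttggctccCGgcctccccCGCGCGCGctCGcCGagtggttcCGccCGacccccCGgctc
Mllt1: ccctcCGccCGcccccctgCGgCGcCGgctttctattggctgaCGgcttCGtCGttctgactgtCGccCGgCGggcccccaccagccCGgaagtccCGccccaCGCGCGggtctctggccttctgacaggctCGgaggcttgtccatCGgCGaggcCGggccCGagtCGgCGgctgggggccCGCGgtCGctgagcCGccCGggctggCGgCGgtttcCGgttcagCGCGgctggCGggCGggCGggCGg
These stretches hold 36, 40, 44 and 37 CG dinucleotides in the order printed. The lists give no peak position, so it is not known whether any ChIP signal lay in these windows.

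The listed share of all protein-coding genes also differed by promoter CpG count. In the richest class, with 29 to 67 CG dinucleotides, it was 27.5% (exact 95% interval 26.0 to 29.0) for the Foxp1KspKO ChIP and 41.2% (39.5 to 42.9) for the control ChIP. In the class with 4 to 9 it was 14.8% for the Foxp1KspKO ChIP and 17.2% for the control ChIP. The poorest class, with 0 to 3, had 14.9% for the Foxp1KspKO ChIP and 23.0% (21.8 to 24.4) for the control ChIP, so the control share did not rise steadily with CpG count. Every member but Aff2 is in the richest class. Of these, 7 are also in the 3 longest deciles of gene length. Among the 1603 genes of the richest class and those deciles, 29.3% were in the Foxp1KspKO list, 46.2% in the control list and 23.0% in both. Of those 7 members, 5 were in the Foxp1KspKO list, 4 in the control list and 4 in both. Whether base composition or gene length has a part in the listing of the members was not tested.

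**Figure D4:**
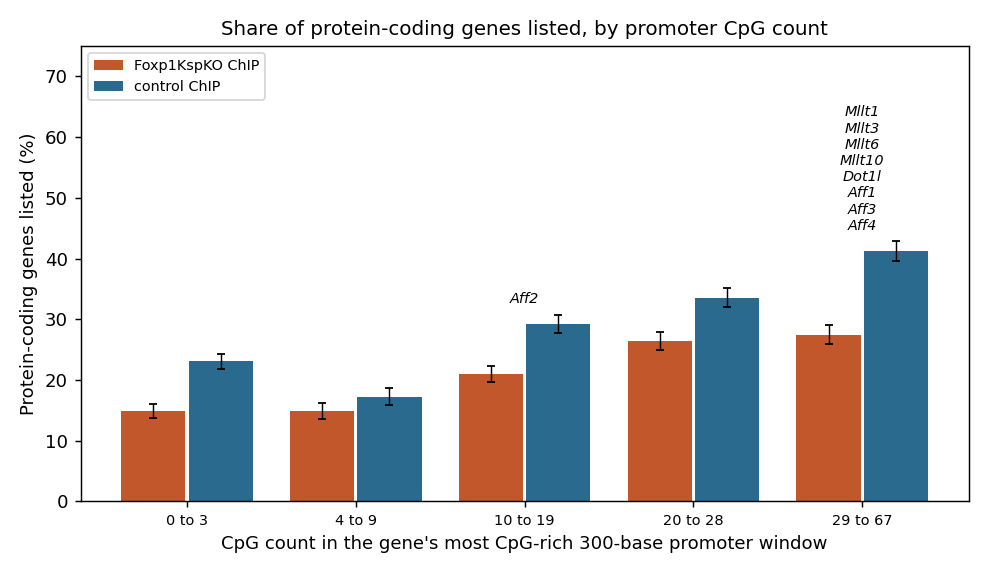
Share of protein-coding genes (percent, vertical axis) listed for the Foxp1KspKO ChIP (left bar) and the control ChIP (right bar) by the CpG count of the gene's richest 300-base promoter window; error bars are exact 95% intervals, and the members are named above their class. The richest class holds 8 of the 9 members and has shares of 27.5% and 41.2%.

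No promoter window of a member held the forkhead motif TGTTTAC on either strand, which 3.01% of the 21263 windows of protein-coding genes hold. The shorter motif TGTTTA, which is part of it, was found in 11.5% of all windows and in 1 of the 13 member windows. That window is at an AT-richer start of Mllt10, upstream of the start whose bases are printed above. The 30 bases round that match, chr2:18055710-18055739 on the plus strand, are shown with the motif in capitals.
Mllt10: aacctttcttgtTGTTTAaagaagtctctg
The same window of Mllt10 held the looser motif TNTTTAC, which includes TGTTTAC, on the minus strand, and 10.7% of all windows hold it. A match describes the reference sequence and not a bound site. The absence of these letters from a window says nothing of binding elsewhere in the gene. For a motif as rare as TGTTTAC, nothing is read from its absence in 13 windows.

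Genes that work with the members in elongation were looked up as well. Of the 29 partner genes reported here, chosen by role, 9 were in the Foxp1KspKO list (20.9% of all protein-coding genes) and 12 in the control list (29.0%). Both lists held 6 of them (13.2% of all), and the unique control list held 6 (15.1%). The 9 listed in the Foxp1KspKO ChIP had a median p-value of 0.0109 and the 12 in the control ChIP one of 1.64e-04. The median over all listed symbols was 0.00532 in the Foxp1KspKO ChIP, against 0.00116 in the control ChIP. The control ChIP gave the lower p-value for 5 of the 6 partners in both lists, as it did for 71.4% of all genes in both lists.

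In P-TEFb and the super elongation complex, 3 of 8 genes were in the Foxp1KspKO list (20.9% of all protein-coding genes) and 4 in the control list (29.0%). The counts of this and the other small partner groups below were not tested, and nothing is read from them. Cdk9, the kinase of P-TEFb, had 0.0138 in the Foxp1KspKO ChIP, against 1.07e-11 in the control ChIP. The elongation factor gene Ell had 0.0193 and 1.90e-04 in the same order. Ell3 was listed for the Foxp1KspKO ChIP alone (0.0118), and Ell2 (0.0110) and the ELL-associated gene Eaf2 (1.39e-04) for the control ChIP alone. The cyclin genes Ccnt1 and Ccnt2 and Eaf1 were not listed. Of the 3 genes whose products hold P-TEFb inactive with 7SK RNA, the inhibitor gene Hexim1 was listed for the control ChIP alone (2.12e-09), and Larp7 and Mepce were not listed.

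The subunits of the pausing factor DSIF were in both lists. Supt4a had 0.00973 in the Foxp1KspKO ChIP, against 4.46e-07 in the control ChIP, while Supt5 had nearly equal values, 0.00104 and 0.00107. None of the 4 NELF subunit genes (Nelfa, Nelfb, Nelfcd and Nelfe) was listed. In the PAF complex, which travels with the polymerase, Paf1 was listed for the Foxp1KspKO ChIP alone (0.0410) and Ctr9 (2.08e-04) and Leo1 (0.0413) for the control ChIP alone. Cdc73, Rtf1 and Wdr61 were not listed.

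Around the MLL methyltransferase, Kmt2a itself had 0.0109 in the Foxp1KspKO ChIP, against 4.46e-08 in the control ChIP. Psip1, whose product LEDGF tethers MLL to chromatin, had 0.00305 in the Foxp1KspKO ChIP, against 5.84e-12 in the control ChIP, the lowest control value among the 29 partners. Men1, the menin gene, was listed for the control ChIP alone (0.00455), and Kmt2b was not listed. Of the other YEATS domain genes, Yeats2 was listed for the Foxp1KspKO ChIP alone (0.00211) and Yeats4 was not listed. No partner gene had a control p-value as low as Mllt10 or Mllt6.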

How the data were processed

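Neonatal mouse kidney tubular cells were profiled by ChIP-seq in 4 libraries, a ChIP and an input per genotype. The authors deposited 3 gene lists with 1 p-value per gene; their test is not given in the sources used here. Tools in the submitters' processing notes are edgeR, deepTools, Bowtie2, Trimmomatic and FastQC, with builds mm10 and GRCm38 and no role for each. Sheet names match the sample descriptions. Members were found by symbol, the lowest p-value standing for repeated symbols (no member is repeated). Coordinates, lengths and promoter sequences come from RefSeq for GRCm38.p6, joined by NCBI gene number. Intervals are exact Clopper-Pearson. Members and gene lists were chosen with earlier results of these data known; the CpG classes, and the joint class of length and CpG count, were chosen after values were seen. Named genes were all members, the 29 partners reported, the 3 genes nearest Mllt10 in both p-values, and nearest neighbours; 1 further gene of the planned partner lists is not reported here. The planned adjustment, length classes and motifs were run as set. Python 3.11.15, pandas 2.3.3, scipy 1.17.1 and matplotlib 3.10.9 were used; the adjustment and motif search were tested on simulated data.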

Additional observations from a re-analysis of the deposited data

How the results depend on the processing

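With a p-value limit of 1e-05 in place of 0.05, 2 members remained in the Foxp1KspKO list, and 2 members in both lists at that limit had a lower control than Foxp1KspKO p-value. At 0.001 these counts were 4 and 4. The control count stayed at 5 and the unique count at 0 under every alternative run. After Benjamini-Hochberg adjustment over all 21900 protein-coding genes, with unlisted genes at 1, 4 members passed in the Foxp1KspKO ChIP (10.3% of all) and 5 in the control ChIP (21.3% of all); Mllt3 (adjusted p = 0.114) and Dot1l (0.191) did not pass in the Foxp1KspKO ChIP. Joining by gene number or keeping the highest p-value of repeated genes changed no count. The motif TGTTTAC was in 0 members, TGTTTA in 1 and TNTTTAC in 1. With quintiles of gene length, 0 of 18 listed shares left the interval of the decile. Several members share a decile, so many of these shares repeat the same value. Each quintile also contains the decile it is compared with, so agreement was partly built in. No paired analysis was possible because each genotype has 1 ChIP library. Depth is unknown and limits every p-value.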
